A study of Homo sapiens with 8 samples.

Results

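The intervals of G4 ChIP-seq at 10 genes that make and protect telomeres were examined: 4 genes of telomerase and its associated proteins (TERT, TERC, NHP2, NOP10) and the 6 genes of shelterin (TERF1, TERF2, TERF2IP, TINF2, ACD, POT1). The genes were taken as a named list out of 64486 genes in the annotation used. G4 ChIP-seq maps G-quadruplexes (G4s), DNA structures of stacked guanines, by immunoprecipitating cross-linked, sonicated and RNase-treated chromatin with the G4-specific antibody BG4. It was performed in untreated, asynchronous cells of 2 lines, K562 (chronic myelogenous leukemia) and HepG2 (hepatocellular carcinoma), and the labels name 3 G4 ChIP libraries and 1 input library for each. The study merged peaks into 2 lists per line, a high-confidence list of stretches called in at least 5 of 8 replicates (K562, 9205 intervals) or 6 of 9 (HepG2, 8805 intervals) and a lower-confidence list of stretches called in at least 2 (19249 and 28387 intervals). The replicates came from 3 independent experiments per line, each with technical replicates. A stretch called in at least 2 replicates may therefore come from 1 experiment. The paper states that earlier K562 G4 ChIP-seq data were also considered.

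Each line is therefore represented by merged positions, with no peak height, read depth or replicate spread, so the lines are compared by position and width and no statistical test was possible. Because the number of replicates and the threshold differ between the lines, a difference between the cells cannot be told apart from one in how the lists were made. A gene absent from a list was not called in enough replicates, which does not show that it lacks a G4. Copy number, expression and open chromatin at these genes were not measured here.

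Telomerase extends the TTAGGG repeats of chromosome ends. TERT is its reverse transcriptase and TERC its RNA, which carries the template and an H/ACA domain bound by dyskerin, NHP2 and NOP10. Shelterin covers the repeats. TERF1 and TERF2 bind duplex telomeric DNA, TERF2IP (RAP1) binds TERF2, TINF2 (TIN2) bridges the duplex-binding proteins to ACD (TPP1), and ACD recruits POT1, which binds the single-stranded overhang. The G-rich telomeric strand can itself fold into G4s. TERT is known to be silent in most somatic cells and active in most cancers, whereas the shelterin genes are broadly expressed.

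High-confidence intervals lay at most of these genes in both lines, and the 3 genes with none in either line were telomerase genes. In K562, 7 of the 10 genes had one in the gene body or within 1 kb upstream of an annotated transcription start site (TSS), beside a background of 37.9% of 20176 protein-coding genes. In HepG2 it was 6 of 10, beside 34.5%. The 6 were NHP2, TERF1, TERF2, TERF2IP, TINF2 and POT1, which were high-confidence in both lines, as 26.3% of protein-coding genes were. ACD was high-confidence in K562 and lower-confidence in HepG2, a pattern shared by 1756 protein-coding genes (8.70%). TERT had lower-confidence intervals in both lines and no high-confidence one, as did 1381 genes (6.84%). NOP10 and TERC had no interval in any of the 4 lists. Counting either list, 8 genes had an interval in K562 and 8 in HepG2, beside 54.0% and 57.7% of protein-coding genes. Absence from every list holds for 35.2% of protein-coding genes, and for 74.1% of the 18702 lncRNA genes, the class to which TERC is assigned.

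**Figure D1:**
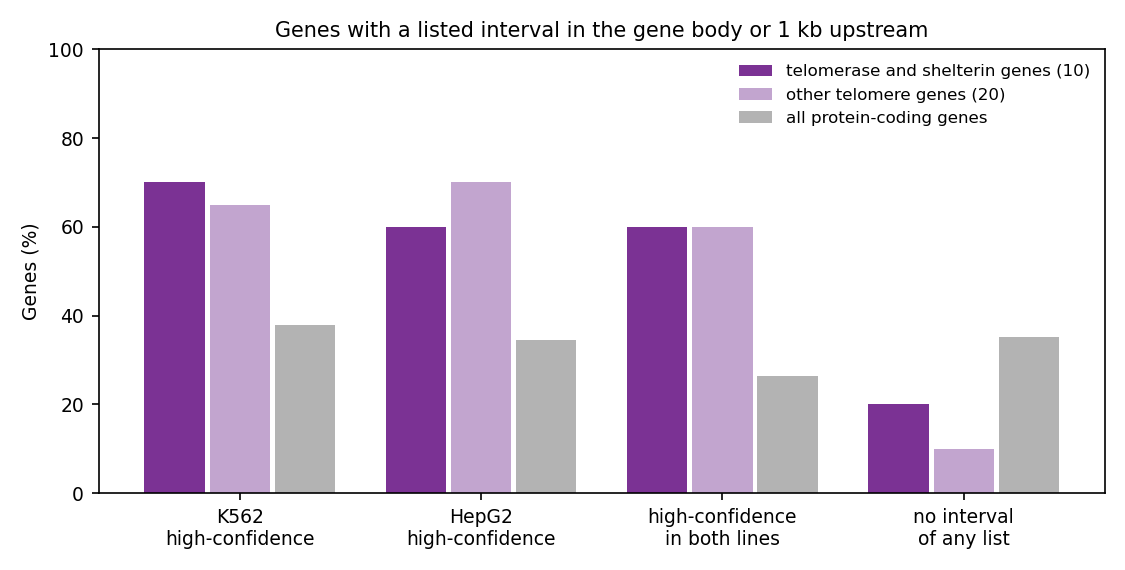
Share of genes (%, vertical axis) with a high-confidence interval in K562, in HepG2, in both, or with no interval of any list, for the 10 telomerase and shelterin genes, 20 other telomere genes and all protein-coding genes. The shares of the 10 genes are 70%, 60%, 60% and 20%, beside 37.9%, 34.5%, 26.3% and 35.2% of protein-coding genes. The 10 genes include TERC, an lncRNA gene.

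By component, all 6 shelterin genes and 1 of the 4 telomerase genes (NHP2) had a K562 high-confidence interval, beside 37.9% of protein-coding genes. In HepG2 the same genes had one except ACD, which was lower-confidence there. The dyskerin gene DKC1, which is outside the 10 genes, was high-confidence in both lines. With gene bodies left out, and the 1 kb upstream of every annotated TSS kept, the counts for the 10 genes were again 7 in K562 and 6 in HepG2. The shares of protein-coding genes were then 34.5% and 29.6%. The members' 10 high-confidence intervals in K562 were 98 to 320 bp wide, with a median of 210 bp, and 9 were centred within 150 bp of a TSS of their gene. All 7 in HepG2 were so centred, and were 152 to 256 bp wide with a median of 183 bp. Among all high-confidence intervals, 69.0% in K562 and 56.7% in HepG2 were centred within 150 bp of any annotated TSS. These shares include intervals outside every gene window, which the selection of the members' intervals leaves out. They are therefore not like for like with the members' counts. The map of intervals around each TSS shows the members' intervals near the TSS and the empty promoters of TERT, TERC and NOP10.

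**Figure D2:**
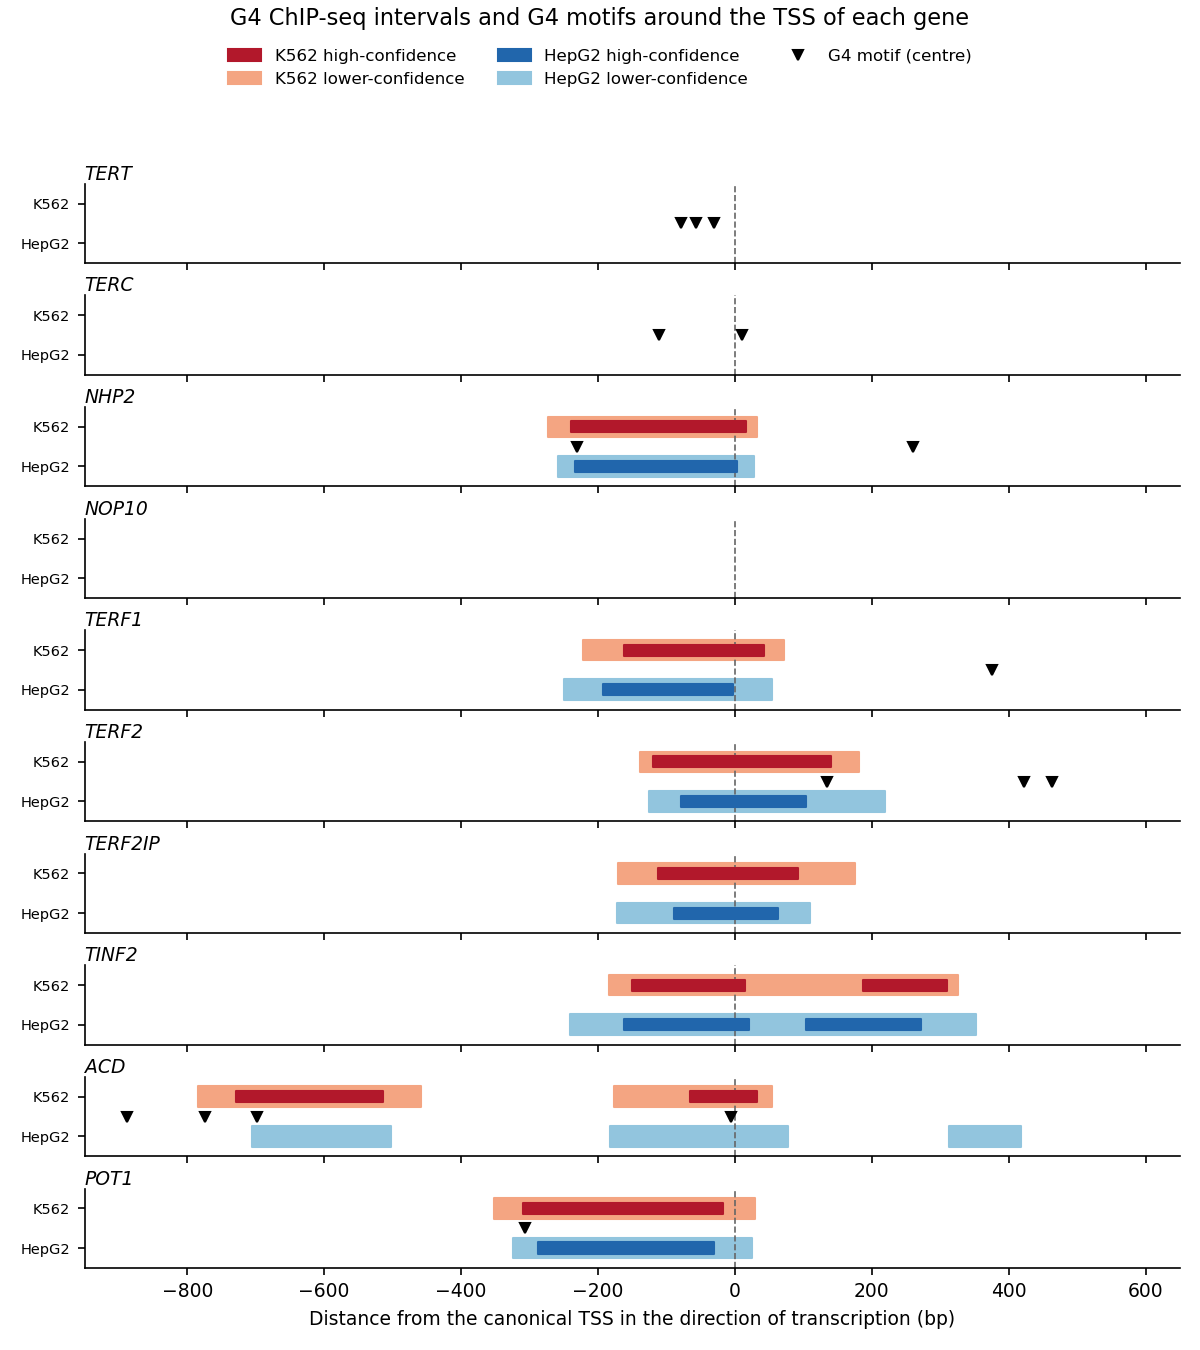
Intervals of the 4 lists around the canonical TSS (dashed line) of each gene, by distance in the direction of transcription (bp, horizontal axis), with K562 above and HepG2 below; dark bars are high-confidence, pale bars lower-confidence, and triangles mark G4 motif centres. Dark bars of both lines lie at the TSS of NHP2, TERF1, TERF2, TERF2IP, TINF2 and POT1, dark bars of K562 alone at ACD, and no bar at TERT, TERC or NOP10.

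The sequence motif searched was 4 G runs, each at least 3 G long, separated by loops 1 to 7 bases long, on the plus or the minus strand. Motifs near the TSS are printed for 6 of the genes, to show ones that the intervals contain, cross or leave out. Sequences are from the GRCh37 (hg19) genome, 5′ to 3′ on the strand that carries the G runs, which are in capitals, and positions count from the canonical TSS to the motif centre.
TERT, −30 bp, template strand, chr5:1295204-1295221: GGGGaGGGGctGGGaGGG
TERT, −56 bp, template strand, chr5:1295228-1295250: GGGGGctGGGccGGGGacccGGG
TERT, −78 bp, template strand, chr5:1295252-1295271: GGGGtcGGGacGGGGcGGGG
TERC, +11 bp, coding strand, chr3:169482826-169482848: GGGttgcggaGGGtGGGcctGGG
TERC, −111 bp, template strand, chr3:169482947-169482971: GGGcGGGctggttGGGGGGaacGGG
NHP2, −230 bp, template strand, chr5:177581104-177581129: GGGaatcGGGGccggagaGGGcGGGG
TERF2, +134 bp, coding strand, chr16:69419768-69419783: GGGaGGGcGGGGaGGG
ACD, −698 bp, template strand, chr16:67694850-67694871: GGGGcGGGGcggcgcGGGcGGG
POT1, −306 bp, template strand, chr7:124570174-124570197: GGGGaagcGGGcGGGtccgctGGG
The first 5 of these, at TERT and TERC, lay under no interval of any list, and the other 4 were touched by K562 high-confidence intervals.

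TERT (chr5:1253262-1295183, minus strand) had the most motifs of the 10 genes, 18 in its window of 42922 bp, and none of them lay under an interval of any list. Over all protein-coding windows, the high-confidence lists touched 2.28% (K562) and 1.29% (HepG2) of motifs, and the lower-confidence lists 4.15% and 3.45%. The 3 motifs printed above follow each other closely just upstream of the TSS, and no interval of the 4 lists reached them. The nearest K562 high-confidence interval was 50102 bp upstream of the TSS, a stretch of 7 bp at CLPTM1L (chr5:1345285-1345291), and the nearest in HepG2 was 133493 bp downstream. Of 5929 protein-coding genes with at least 3 motifs in the 1 kb upstream of their annotated TSSs, 47.8% had a high-confidence interval there in K562 and 35.9% in HepG2, and TERT had neither. No interval of any list lay there in 27.4%, a share that does not count TERT because of a HepG2 interval upstream of an internal TSS.

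The intervals that did lie in TERT were intronic and lower-confidence. K562 had 1, in intron 2, of 134 bp (chr5:1284584-1284717) centred 10532 bp into the gene. HepG2 had 1 of 130 bp in the same intron (chr5:1283630-1283759), centred 11488 bp into the gene, and 1 of 75 bp in intron 15 (chr5:1254293-1254367), 40853 bp into the gene. The intron 2 intervals of the 2 lines did not overlap and were 824 bp apart. The one in HepG2 is centred 570 bp upstream of an internal annotated TSS, so TERT counts as having an upstream interval in HepG2 through that TSS and not through its main promoter.

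Both intron 2 intervals lay in tandem repeats, which sets them apart from every other interval of the 10 genes. Shifted by its best period, the HepG2 interval was identical to the neighbouring sequence at 84.6% of bases (period of 61 bp) and the K562 interval at 90.3% (period of 121 bp), whereas the other intervals of these genes reached 31.4% to 48.0%. They are printed whole on the coding strand, with runs of at least 2 G in capitals, to show the repeat.
TERT intron 2, HepG2, chr5:1283630-1283759: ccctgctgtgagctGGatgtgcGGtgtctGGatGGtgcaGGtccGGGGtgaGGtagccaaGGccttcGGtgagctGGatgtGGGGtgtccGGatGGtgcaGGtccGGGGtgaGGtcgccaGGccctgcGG
TERT intron 2, K562, chr5:1284584-1284717: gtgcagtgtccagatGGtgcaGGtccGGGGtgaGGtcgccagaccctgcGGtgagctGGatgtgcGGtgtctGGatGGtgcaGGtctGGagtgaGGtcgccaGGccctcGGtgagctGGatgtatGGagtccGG
A stretch of 36 bases is common to both, at chr5:1283717-1283752 and chr5:1284632-1284667. Neither interval held a motif with runs of 3 G, and each held 4 with runs of at least 2 G. Reads in repeats can map ambiguously, and the part this played in these intervals was not tested.

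TERC (chr3:169482308-169482848, minus strand) has a motif that starts at the first transcribed base and another 111 bp upstream. It had no interval of any list, as 74.1% of lncRNA genes had none. Its nearest intervals, at the MYNN gene, began 8215 bp (high-confidence) and 8093 bp (lower-confidence) upstream in K562 and 8163 bp upstream in HepG2 (lower-confidence), while the nearest HepG2 high-confidence interval was 457262 bp away. NOP10 (chr15:34631360-34635381, minus strand), a small H/ACA protein gene, had neither an interval nor a motif in its window of 5022 bp. The H/ACA genes thus differed among themselves, since NHP2 was high-confidence in both lines.

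NHP2 (chr5:177576464-177580895, minus strand) encodes an H/ACA core protein. Its promoter interval was 256 bp in K562 (chr5:177580871-177581126) and 236 bp in HepG2 (chr5:177580884-177581119), and the HepG2 interval lay wholly inside the K562 one. The centres were 3.00 bp apart, 112 bp and 116 bp upstream of the TSS. The printed NHP2 motif sits at the upstream edge. The K562 interval covered 23 of its 26 bases and the HepG2 interval 16, and the lower-confidence intervals of both lines, 306 bp and 286 bp wide, contained it whole. A second motif, 260 bp downstream of the TSS, lay under no interval. The interval also covers the TSS of an unnamed lncRNA transcribed in the other direction.

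TERF1 (chr8:73921091-73960358, plus strand) encodes a duplex repeat-binding protein that restrains telomere elongation. Its high-confidence interval was 204 bp in K562 (chr8:73920937-73921140) and 191 bp in HepG2 (chr8:73920906-73921096), sharing 160 bp. The HepG2 interval lay further upstream and ended 3 bp before the canonical TSS, and the K562 one crossed it. Neither held a G4 motif or a GC box (GGGCGG on either strand, the site bound by SP1-family factors), which 69.6% of K562 and 51.3% of HepG2 high-confidence intervals held. Among the high-confidence intervals of the 10 genes, those of TERF1 and an internal K562 interval of POT1 lacked a GC box, and the others held at least 1.

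TERF2 (chr16:69389470-69442474, minus strand) encodes the duplex-binding protein that blocks end-to-end fusion. Its interval spanned the canonical TSS, 261 bp wide in K562 (chr16:69419770-69420030) and 182 bp in HepG2 (chr16:69419807-69419988), and was the most GC-rich of the shared intervals at 74.3% and 73.6%. The K562 interval was wider by 79 bp, the largest width difference among the overlapping pairs, and contained the HepG2 one. The centres were 2.50 bp apart. The TERF2 motif, in coding exon 1, lies at the downstream edge, where 14 of its 16 bases were inside the K562 interval. It lay 23 bp outside the HepG2 interval, and the lower-confidence intervals of both lines contained it. HepG2 had a further lower-confidence interval of 173 bp (chr16:69438480-69438652), 18656 bp upstream of that TSS and inside the longest annotated TERF2 transcript, with a GC content of 49.1%, which K562 lacked in both lists.

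TERF2IP (chr16:75681671-75795770, plus strand) encodes RAP1 and shares its promoter with the divergent KARS1 gene, a lysyl-tRNA synthetase. The interval was 205 bp in K562 (chr16:75681559-75681763) and 152 bp in HepG2 (chr16:75681582-75681733), again nested, with centres 10 bp and 14 bp upstream of the TERF2IP TSS. The K562 interval reached 1 KARS1 TSS and the lower-confidence intervals of both lines reached 7. None of these intervals held a motif. The 11 motifs of the window all lay outside, the nearest 33950 bp downstream, in a window that a long transcript stretches to 115100 bp.

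TINF2 (chr14:24707492-24711869, minus strand) was the only one of the 10 genes with 2 high-confidence intervals inside a single lower-confidence interval. In K562 a promoter interval of 165 bp (chr14:24711815-24711979) and one of 123 bp within exon 1 (chr14:24711520-24711642) lay inside a single lower-confidence interval of 510 bp. In HepG2 the corresponding intervals were 183 bp (chr14:24711809-24711991) and 168 bp (chr14:24711558-24711725), inside one of 593 bp. The exon 1 interval of each line covered 5 annotated TINF2 TSSs. Of lower-confidence intervals that hold a high-confidence one, 5.03% in K562 and 5.29% in HepG2 hold 2 or more. The promoter pair had centres 3.00 bp apart. The exon 1 pair had centres 60.5 bp apart and shared 85 bp, the widest shift among the overlapping pairs, and its HepG2 interval lay nearer to the TSS. TINF2 had no motif anywhere in its window of 5378 bp. With loops of up to 12 bases, 1 motif lay in the promoter interval of both lines.

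At ACD (chr16:67691415-67694713, minus strand), the TPP1 gene, the lines differed. K562 had 2 high-confidence intervals, one of 98 bp over the canonical TSS (chr16:67694132-67694229) and one of 215 bp centred 622 bp upstream (chr16:67694678-67694892), where a longer ACD transcript begins and where 3 TSSs of the divergent PARD6A gene lie. HepG2 had no high-confidence interval at ACD, and the nearest was 7724 bp upstream of the canonical TSS. In its lower-confidence list the same positions were occupied, by intervals of 261 bp (chr16:67694086-67694346) and 203 bp (chr16:67694666-67694868), with centres 8.50 bp and 18 bp from those of the K562 lower-confidence intervals of 230 bp and 325 bp. HepG2 also had lower-confidence intervals of 105 bp reaching into exon 2 (chr16:67693746-67693850) and of 25 bp in intron 9 (chr16:67692405-67692429), which K562 lacked. At both promoter positions the HepG2 stretches were therefore called in at least 2 but in fewer than 6 of the 9 replicates.

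The ACD intervals were also the only high-confidence intervals of the 10 genes that held a complete G4 motif, and the one in the upstream interval is printed above. Over all high-confidence intervals, 32.6% in K562 and 20.6% in HepG2 held one. A further ACD motif, at chr16:67694926-67694948, lay with 22 of its 23 bases under the K562 lower-confidence interval and under no other.

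POT1 (chr7:124462440-124570037, minus strand) encodes the protein on the single-stranded overhang. Its promoter interval was 292 bp in K562 (chr7:124569897-124570188) and 256 bp in HepG2 (chr7:124569911-124570166), the HepG2 one nested in the other, with centres 164 bp and 160 bp upstream of the canonical TSS. These intervals cover 16 TSSs of the divergent lncRNA POT1-AS1. The POT1 motif lies at their upstream edge, with 15 of its 24 bases inside the K562 interval. It starts 7 bp outside the HepG2 interval, and both lower-confidence intervals, 381 bp and 349 bp wide, contained it.

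K562 alone had a second POT1 interval, unlike any other in these genes. It lay 66296 bp into the gene (chr7:124503424-124503743), was 320 bp wide, and covered 271 bp of the 291 bp coding exon 8 and 49 bp of intron. No interval of either HepG2 list touched it, while its K562 lower-confidence interval extended to 528 bp. Its GC content was 41.6%, against 63.2% to 74.3% in the other K562 high-confidence intervals of the 10 genes. Of the 9205 high-confidence intervals of K562, 17 (0.185%) had a GC content under 45%, and in HepG2 1.25% had. It held no motif even with runs of 2 G, as 10.4% of K562 high-confidence intervals did not. All 17 of the K562 intervals with a GC content under 45% lacked one. The central 300 bp are printed on the coding strand, with runs of at least 2 G in capitals, to show how sparse these runs are.
POT1 exon 8, chr7:124503434-124503733: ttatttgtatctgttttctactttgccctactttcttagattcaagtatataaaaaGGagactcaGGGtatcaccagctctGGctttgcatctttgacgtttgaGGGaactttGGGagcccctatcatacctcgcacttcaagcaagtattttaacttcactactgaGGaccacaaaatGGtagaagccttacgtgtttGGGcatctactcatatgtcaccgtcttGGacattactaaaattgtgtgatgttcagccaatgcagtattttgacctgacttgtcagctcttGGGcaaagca
The map of TERT and POT1 sets this interval, away from every motif of the gene, beside the intronic intervals of TERT.

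**Figure D3:**
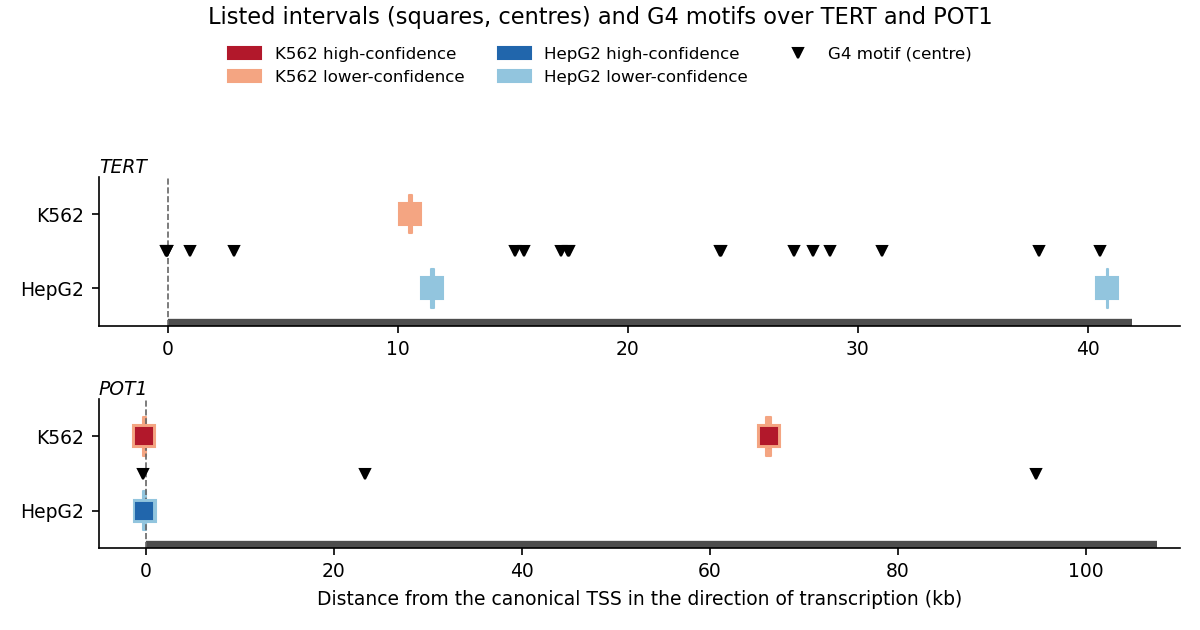
Centres of listed intervals (squares, coloured by line and list) and G4 motifs (triangles) over TERT and POT1, by distance from the canonical TSS in kb; the grey bar is the gene, and squares are larger than the intervals they mark. TERT has lower-confidence squares inside the gene and no square at its TSS; POT1 has high-confidence squares of both lines at its TSS and 1 of K562 alone 66296 bp into the gene.

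Between the lines, 7 pairs of high-confidence intervals in 6 genes overlapped, and K562 was the wider in 5 of them, beside 62.6% of all 4824 overlapping pairs. The width ratio of K562 to HepG2 was 1.43 at TERF2, 1.35 at TERF2IP, 1.14 at POT1, 1.08 at NHP2 and 1.07 at TERF1, and 0.902 and 0.732 at the promoter and exon 1 intervals of TINF2. In 4 pairs the HepG2 interval lay wholly inside the K562 one, and in 1, at the TINF2 promoter, the reverse. The median distance between centres was 3.50 bp (range 2.5 to 60.5 bp), beside 25.5 bp over all pairs. All pairs include ones outside every gene window, so neither this value nor the 62.6% is like for like with the 7 pairs. Width here reflects how far enough replicates agree, and is not a measure of G4 signal.

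**Figure D4:**
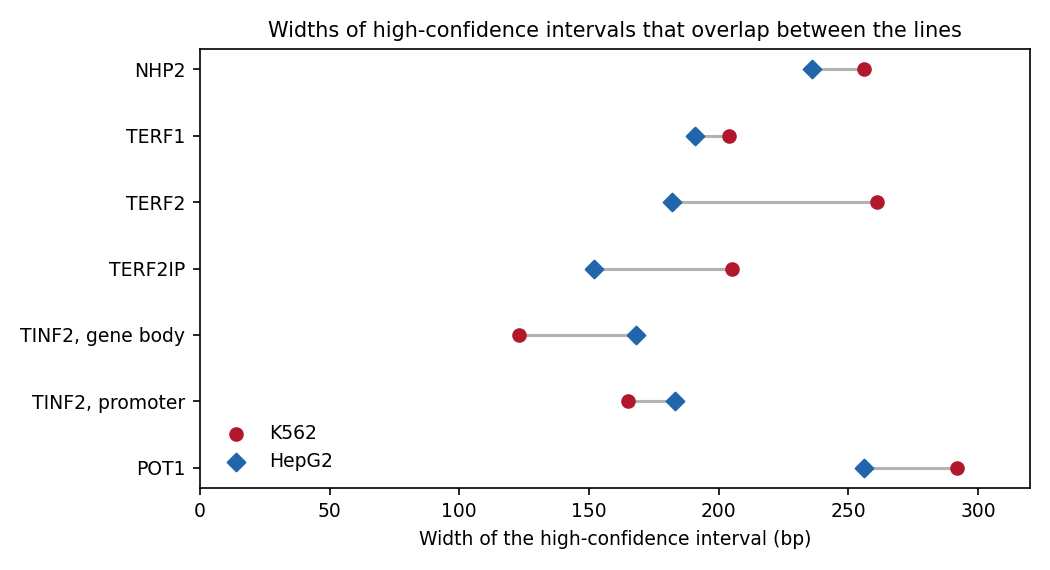
Widths (bp, horizontal axis) of the 7 pairs of overlapping high-confidence intervals, K562 as circles and HepG2 as diamonds, joined by a line. K562 is wider at NHP2, TERF1, TERF2, TERF2IP and POT1, and HepG2 is wider at both TINF2 intervals.

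Most motifs at these genes lay outside the intervals, as they did over all protein-coding windows. Of 52 motifs in the 10 windows, K562 high-confidence intervals touched 5, of which 2 were wholly inside, and HepG2 high-confidence intervals touched 1, with none wholly inside. The lower-confidence lists touched 6 (K562) and 5 (HepG2). Counted by interval, 5 of the 10 high-confidence intervals in K562 and 1 of the 7 in HepG2 touched a motif. The share of all intervals that touch one was not computed, so these counts have no background. A motif lay wholly inside 2 of the 10 and 0 of the 7, beside 32.6% and 20.6% of all high-confidence intervals. Over all protein-coding windows, 2.28% and 1.29% of 217567 motifs were touched by the high-confidence lists of K562 and HepG2, and 4.15% and 3.45% by the lower-confidence lists. The touched motifs all lay in the 1 kb upstream of an annotated TSS, where the 10 genes have 16 motifs. Of these 16, the high-confidence lists touched 5 in K562 and 1 in HepG2, beside 10.1% and 5.78% of such motifs at all protein-coding genes, and the lower-confidence lists touched 6 and 5, beside 16.9% and 13.5%. A motif with runs of at least 2 G lay in 9 of the 10 high-confidence intervals in K562 and all 7 in HepG2. Only 10.4% and 20.4% of all high-confidence intervals lacked one, so holding one is usual in both lists and the K562 count is near the background. GC boxes lay in 8 of 10 and 6 of 7, beside 69.6% and 51.3% of all high-confidence intervals. The TERF2IP promoter is an example without any motif of the stricter kind, shown from the start of the HepG2 interval to the TSS with runs of at least 3 G or at least 3 C on the plus strand in capitals.
TERF2IP, chr16:75681582-75681670: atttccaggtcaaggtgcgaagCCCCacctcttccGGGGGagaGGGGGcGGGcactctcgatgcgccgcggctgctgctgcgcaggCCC
TINF2 shows the longer-loop form, with runs of at least 3 G in capitals.
TINF2, chr14:24711869-24711905: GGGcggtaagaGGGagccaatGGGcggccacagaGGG

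**Figure D5:**
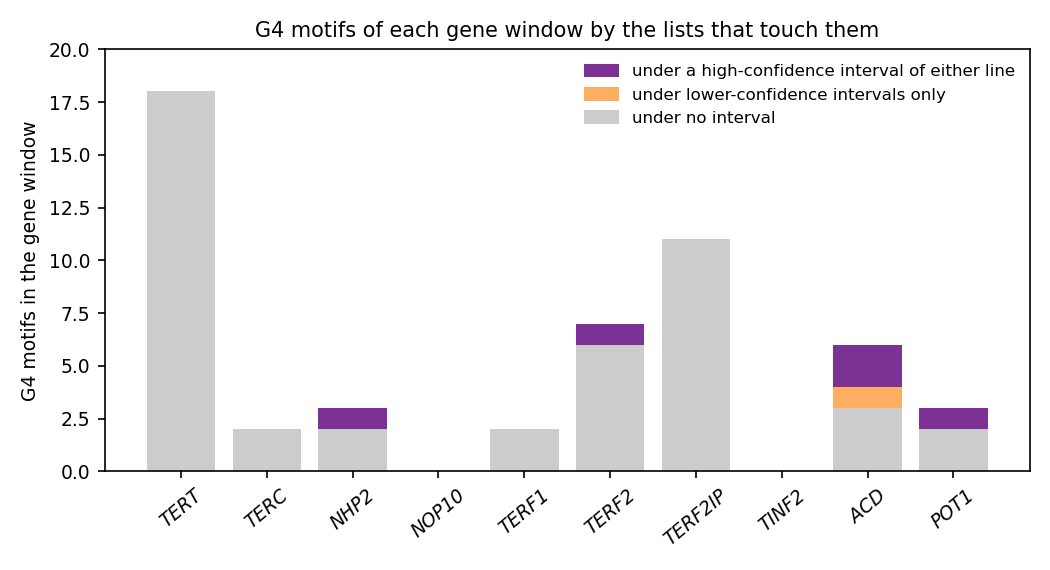
Number of G4 motifs (vertical axis) in the window of each gene, split by whether a high-confidence interval of either line, lower-confidence intervals only, or no interval touches them. TERT has 18 motifs, all untouched; of the 6 at ACD, 2 are under high-confidence intervals; NOP10 and TINF2 have none.

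The same lists were read for 20 other telomere genes, chosen for their roles: telomerase assembly and TERC processing (DKC1, GAR1, NAF1, SHQ1, WRAP53, RUVBL1, RUVBL2, PARN, TENT4B), the CST complex (CTC1, STN1, TEN1) and telomere regulators (TNKS, TNKS2, DCLRE1B, PINX1, SMG6, HMBOX1, ZBTB48, RTEL1). High-confidence intervals lay at 13 (65%) in K562, 14 (70%) in HepG2 and 12 (60%) in both, beside 37.9%, 34.5% and 26.3% of protein-coding genes. The windows of these 20 genes reached 244947 bp (at SMG6), and the counts were the same with gene bodies left out. SHQ1, an assembly factor, and TNKS2, a tankyrase, had no interval in any list. DKC1, the dyskerin gene, had 1 high-confidence interval in each line, so of the H/ACA core proteins NHP2 and dyskerin were listed in both lines, NOP10 in neither, and GAR1 had a single lower-confidence interval, in HepG2. Where the lines differed, the direction varied. RTEL1, a telomere helicase, was high-confidence in K562 alone, whereas WRAP53, which guides telomerase to Cajal bodies, and SMG6 were high-confidence in HepG2 and lower-confidence in K562. In the CST complex, which limits telomerase and fills in the C-rich strand, STN1 and TEN1 were high-confidence in both lines and CTC1 lower-confidence in both.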

How the data were processed

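G4 ChIP-seq of K562 and HepG2 was deposited by the authors as 4 lists of merged intervals, 2 per cell line, that hold positions in bp and no read count, height or q-value. Reads had been trimmed with cutadapt, aligned to hg19 with BWA and freed of duplicates with Picard and samtools, peaks had been called per replicate with MACS2, and stretches called in enough replicates had been kept with bedtools. Depth per sample is therefore unknown, and replicates could not be compared.

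From there, intervals were counted for a gene when at least 1 bp lay in its body or within 1 kb upstream of any of its annotated TSSs, in GENCODE version 44 lifted to GRCh37 (the study used another GENCODE version). The canonical TSS is that of the transcript which the annotation tags as canonical. Motifs were searched non-overlapping on each strand of the GRCh37 genome, and called inside an interval when wholly within it. Positions are 1-based. HepG2 sequence measures used the 8776 high-confidence intervals on the nuclear chromosomes. Backgrounds are shares over all genes of a type, all intervals of a list or all motifs, given as descriptions. The functions were tested on simulated data. There, 100% of 1200 overlap calls equalled a base-by-base search. For motifs, 100% of 400 calls on sequences with a planted motif or near-motif gave the planted answer. The software was Python 3.11.15 with matplotlib 3.10.9 and pysam 0.24.0, and samtools 1.23.1.

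The 10 genes, the 20 other telomere genes and the comparisons were chosen with earlier results of these data known. The genes named are these lists and any gene whose TSS or body lies under an interval of the 10, or which lies at the nearest interval where a gene has none. A motif and a neighbouring gene are not reported here. Sequences printed were motifs under an interval or near the TSS of 6 genes, and the intervals that stand apart, chosen once their values had been seen. Other overlap rules, windows, TSS sets, width minimums and motif definitions, and the lower-confidence lists, were tried as alternatives.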

Additional observations from a re-analysis of the deposited data

How the results depend on the processing

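No paired analysis was possible because the lists hold merged replicates and no result comes from a test. Of 70 values under alternatives, 57 stayed within 1.5 times the value reported. These cover all counts of genes with an interval, of genes with overlapping intervals in both lines, and 1 count of motifs. Counts of 7 or 8 out of 10 genes cannot rise beyond 1.5 times, so looser alternatives could not have moved them. With the lower-confidence lists the genes with intervals numbered 8 in K562, in HepG2 and in both. With the gene body left out, TERT no longer had an interval in K562, which left 7 with one of either list. An alternative that used canonical transcripts alone was added after seeing the data for the 5 counts of genes with an interval and changed none of them.

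The counts that moved were those of motifs. High-confidence intervals holding a motif numbered 2 in K562 and 0 in HepG2. They became 6 and 3 with loops of up to 12 bases, 9 and 7 with runs of at least 2 G, 5 and 1 when a motif could reach 25 bp past an edge, and 5 and 3 in the lower-confidence intervals around them. Motifs under a high-confidence interval numbered 5 and 1. They became 8 and 5 with the longer loops, 2 and 0 when the motif had to be wholly inside, and 5 in HepG2 with the lower-confidence list. Each follows from its own construction, since a looser motif or a wider interval takes in more. Statements that an interval lacks a motif therefore hold for the stated definition alone.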

Other observations

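RTEL1, the helicase that unwinds telomeric loops, had the most intervals of any telomere gene examined, and they were in the HepG2 lower-confidence list. In its window (chr20:62288163-62327606) HepG2 had 24 lower-confidence intervals of 25 to 280 bp and no high-confidence one, of which 2 held a G4 motif. K562 had 2 lower-confidence intervals there, both overlapping HepG2 ones, and 1 high-confidence interval. RTEL1 was singled out after its values were seen.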
